A study of Mus musculus with 6 samples.

Results

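The genes described here are the cullins, their core partners and the BTB adaptors of cullin 3, measured in mouse adrenal glands with and without Armc5. They were chosen by gene name: a locus was a member if any of its gene names was a numbered cullin (Cul), Klhl, Kbtbd, Kctd or Rhobtb gene, or Rbx1, Nedd8, Ube2m or Spop. The rule found 81 of the 59699 loci in the deposited table, of which 53103 carry a gene name. These are 8 cullin loci, 3 loci of the core partners, 36 Klhl loci, 9 Kbtbd loci, 21 Kctd loci, and 4 loci of Spop and the Rhobtb genes. Thus 70 of the 81 belong to the BTB families, called adaptors here by name. Whether each works with cullin 3 was not tested. The question is whether adaptors other than Armc5 change in RNA level when Armc5 is lost.

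RNA was sequenced from adrenal glands of 2 genotypes, wild type (3 samples, here WT) and Armc5(-/-), the knockout (3 samples, here KO). All 6 came from females aged 30 weeks on the mixed strain background 129 sv X CD1. The labels name no part of Armc5 as deleted, no Cre driver and no treatment, and they do not say whether each sample was a separate animal, so the spread behind each p-value is that between samples and may be technical. The libraries held between 70547288 and 130573434 counted reads.

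Cullins are the scaffolds of the largest class of E3 ubiquitin ligases. The C-terminal end of a cullin holds a RING protein, Rbx1 for most cullins, which brings in the ubiquitin-loaded E2 enzyme, and the N-terminal end holds an adaptor that picks the substrate. Cullin 3 takes its adaptors from proteins with a BTB domain, among them the kelch-like proteins (Klhl and Kbtbd), Kctd proteins and Spop, and Armc5 is itself a BTB protein that works with cullin 3. A ligase is switched on when the E2 enzyme Ube2m attaches the ubiquitin-like protein Nedd8 to the cullin, and switched off when the COP9 signalosome removes it.

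The Armc5 locus checks the labels. Its level was 27.3, 25.2 and 27.8 CPM (the usual counts-per-million unit, here relative to the TMM-scaled size of each library) in WT and 3.58, 3.53 and 3.65 CPM in KO. Armc5 fell by 2.90 on the log2 scale (SE 0.10), with an adjusted p of 0.00041 in edgeR's quasi-likelihood test with Benjamini-Hochberg adjustment over the 21358 loci that passed the count filter. That test, at an adjusted p under 0.05, is the one by which a locus is called below. Every fold change is KO over WT.

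Of the 81 member loci, 74 passed the count filter. Among them 3 were called, or 4.05%, against 1.84% of all tested loci. All 3 were higher in KO, the direction in which 1.41% of all tested loci were called. None was called lower, against 0.431% of all tested loci. The called loci are Kbtbd11, Klhl33 and a merged locus that holds both Sez6l2 and Kctd13, and all belong to the adaptor families. A count of 3 is too small to set these families apart. An unadjusted p under 0.05 was reached by 13 of 74 members (17.6%; 7 higher and 6 lower) and by 22.2% of all tested loci. The 2 groups did not overlap for 21 of 74 members (28.4%; 9 with KO above WT and 12 with KO below) and for 30.5% of all tested loci. The fitted change was under 0.5 on the log2 scale in size for 63 of the 74 members, or 85.1%, against 69.8% of all tested loci. The members were also measured more precisely, with a median standard error of 0.153 against 0.232 over all tested loci, and the part of that in the smaller changes was not tested.

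**Figure D1:**
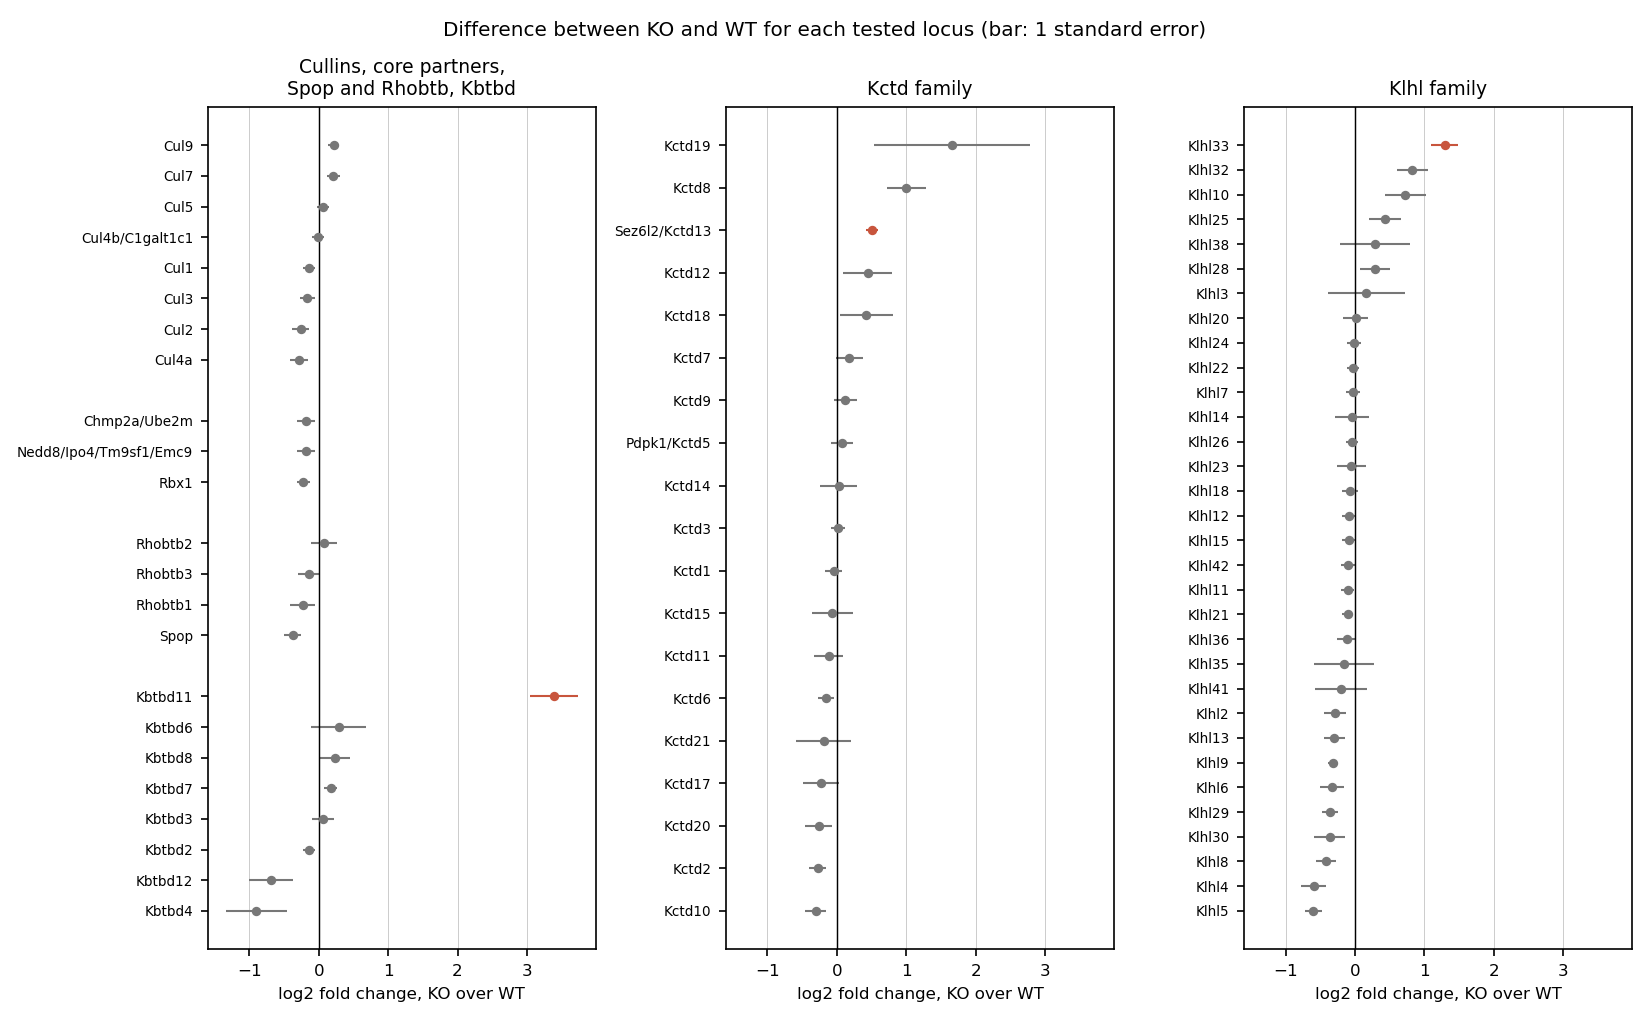
Log2 fold change of KO over WT (x axis) for each of the 74 tested member loci, grouped by family; the bar is 1 standard error and red points are the loci called by edgeR. Kbtbd11, at 3.39, stands far to the right of all the others, and most loci lie within 0.5 of zero.

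Start sites of genes in the called loci can be shown from the RefSeq promoter table for GRCm38.p6, which matched 64 of the 81 member symbols. Promoters of 2 genes are given as 250 bases before the start site, 5′ to 3′ on the gene's strand, since both lie in loci that were called higher. Klhl33 is a locus of its own, whereas Kctd13 shares its called locus with Sez6l2. Capitals mark a GC box (GGGCGG on either strand). The first is Kctd13 at chr7:126928629-126928878, plus strand. The second is the outer start site of Klhl33 at chr14:50897484-50897733, minus strand.
Kctd13: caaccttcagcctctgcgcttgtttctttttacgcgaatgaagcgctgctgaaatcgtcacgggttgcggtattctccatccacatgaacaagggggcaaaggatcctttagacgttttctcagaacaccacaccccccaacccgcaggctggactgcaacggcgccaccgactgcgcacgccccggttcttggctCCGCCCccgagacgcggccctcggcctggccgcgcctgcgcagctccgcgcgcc
Klhl33: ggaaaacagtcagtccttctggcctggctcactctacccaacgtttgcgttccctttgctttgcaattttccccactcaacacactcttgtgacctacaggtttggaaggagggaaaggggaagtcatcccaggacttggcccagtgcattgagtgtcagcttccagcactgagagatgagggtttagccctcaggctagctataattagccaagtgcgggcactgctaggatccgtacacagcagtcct
The Kctd13 sequence holds 63.2% G and C, 26 CpG pairs and 1 GC box at position -54 from the start site. The Klhl33 sequence holds 52.4% G and C and 4 CpG pairs. The median over all 32851 promoters of this length was 52.4% and 6 CpG pairs, so that Kctd13 lies above it on both measures and Klhl33 does not. A GC box occurs in 32.7% of those promoters. Neither printed sequence holds a TATA box (TATAAA, in 12.4% of promoters), a cyclic AMP response element (TGACGTCA, 1.55%) or an SF-1 site (CAAGGTCA, 1.33%), each searched on both strands. These are letter matches and not evidence that a factor binds. Kbtbd11 is not among the matched symbols.

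Kbtbd11, a BTB-kelch gene on chromosome 8 (GRCm38, 15011025 to 15033333, plus strand), showed the largest change of any member. Its raw counts were 31, 79 and 43 in WT and 706, 389 and 494 in KO. On the scaled level this was 0.306, 0.611 and 0.536 CPM in WT and 6.39, 5.10 and 3.82 CPM in KO. The lowest KO library was several-fold above the highest WT library. The means were 0.484 ± 0.159 CPM and 5.10 ± 1.29 CPM (SD, n = 3 each), and the locus rose 10.5-fold, with a log2 fold change of 3.39 (SE 0.35). The adjusted p from edgeR was 0.0161, and by p-value it ranked 54 of all tested loci. Kbtbd11 therefore went from almost undetected to a low but clear level: per length it stayed below every cullin.

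The tested loci listed here around Kbtbd11 were not called. Arhgef10 ends 9.94 kb before it on the same strand and had a log2 fold change of -0.13. Cln8, the next tested locus in that direction, was at -0.49 (adjusted p 0.101 in edgeR). Further along, 163 kb before Kbtbd11, Dlgap2 was higher in every KO library. It stood at 1.01, 1.29 and 0.636 CPM in WT and 1.75, 1.93 and 1.61 CPM in KO. Its log2 fold change was 0.84, with an adjusted p of 0.172 in edgeR. Csmd1, the nearest tested locus on the other side at a distance of 859 kb, was at -0.14. Gm37844 lies inside Kbtbd11 on the opposite strand and averaged 0.401 CPM in WT against 0.546 CPM in KO, not called. Whether the authors' counting used strand is not given in the sources used here.

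Klhl33, a kelch-like gene on chromosome 14 (50888582 to 50897507, minus strand), was also sparse. The libraries held 190, 263 and 151 reads in WT and 484, 444 and 517 in KO, or 1.88, 2.04 and 1.88 CPM against 4.38, 5.82 and 3.99 CPM. WT libraries were close together and every KO library was above them. The mean rose from 1.93 ± 0.0906 to 4.73 ± 0.965 CPM (SD, n = 3 each), 2.45-fold, or 1.29 on the log2 scale (SE 0.20), with an adjusted p of 0.0427 in edgeR. The nearby genes Tep1, Parp2 and Osgep had log2 fold changes of -0.02, 0.02 and -0.01. Pip4p1 was at -0.40 and Apex1 at -0.49, neither of them called.

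The third called locus merges Kctd13, an adaptor known to bring the GTPase RhoA to cullin 3, with Sez6l2, a membrane protein of neurons. It spans positions 126928879 to 126970606 on chromosome 7, plus strand, and its reads cannot be assigned to one gene or the other. Its level was 77.0, 71.9 and 74.9 CPM in WT and 99.2, 109 and 110 CPM in KO. The groups were tight and separate. The mean rose from 74.6 ± 2.55 to 106 ± 5.89 CPM (SD, n = 3 each), 1.42-fold, or 0.51 on the log2 scale (SE 0.08), with an adjusted p of 0.0443 in edgeR. Among the 69 tested members that hold a single protein-coding gene, 2 were called.

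The Sez6l2/Kctd13 locus lies 1.267 Mb from Armc5. Of the 120 tested loci within 2 Mb of Armc5, 2 were called (1.67%), this one among them, close to the share over all loci. DNA of the 129 or CD1 strain linked to the Armc5 allele was not tested. The gene Asphd1 overlaps the locus on the opposite strand and averaged 0.642 ± 0.159 CPM in WT against 1.48 ± 0.124 CPM in KO (SD, n = 3 each; adjusted p 0.0697 in edgeR). Tmem219 and Cdipt, nearby on either side, were at -0.17 and -0.06 on the log2 scale, not called.

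None of the 3 calls held in all 6 fits that left out 1 library. Leaving out WT replicate 3, KO replicate 1 or KO replicate 2 ended the Kbtbd11 call, with adjusted p of 0.0879, 0.0810 and 0.0811 in edgeR, while the log2 fold change stayed between 3.15 and 3.62. Klhl33 was called in none of the 6 (adjusted p 0.0527 to 0.145), nor was Sez6l2/Kctd13 (adjusted p 0.0536 to 0.149). With no count filter the adjusted p of Sez6l2/Kctd13 was 0.0511.

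**Figure D2:**
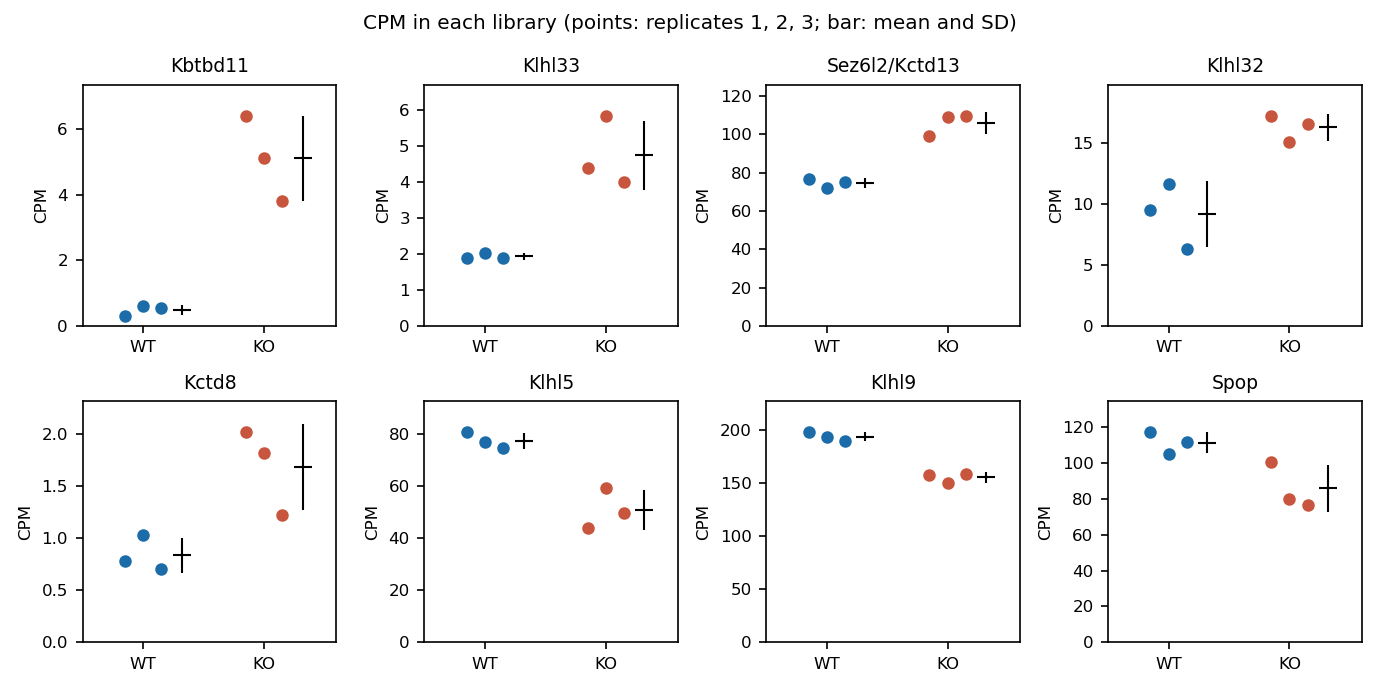
CPM (y axis) of the 3 called loci and of 5 loci that were not called but had small p-values, in each WT and KO library; the bars are the mean and SD of 3. For Kbtbd11 the KO libraries lie between 3.82 and 6.39 CPM and the WT libraries below 1 CPM.

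Markers of several cell types differed between the groups. The summed level of the 10 chromaffin-cell markers was 1951, 2774 and 2069 CPM in WT and 4393, 4024 and 3983 CPM in KO, with 4 of 10 called higher (Chga, Dbh, Hand2, Phox2a). Of the 8 neuron markers 3 were called higher (Nefm, Tubb3, Stmn2), and their sum was 104 to 146 CPM in WT against 204 to 229 CPM in KO. Syt1 and Snap25, not called, made up most of that sum. Rbfox3 went the other way, at 2.87 CPM in WT against 2.20 CPM in KO with no overlap, and Nefl was at -0.05 on the log2 scale, neither of them called. The 7 tested markers of the steroid-making cortex were not called in edgeR, 2 of them having an unadjusted p under 0.05, and their sum was 23030 to 38650 CPM in WT against 19400 to 21320 CPM in KO. Markers of multiciliated cells were sparse and 2 of 6 were called higher. Endothelial markers summed to 785 to 935 CPM in WT against 586 to 720 CPM in KO, with 0 of 8 called in edgeR and 5 of 8 at an unadjusted p under 0.05. Erythroid markers summed to 329 to 537 CPM in WT against 78.3 to 236 CPM in KO, with 0 of 3 called in edgeR and 1 at an unadjusted p under 0.05. Markers of Schwann and sustentacular cells had a median log2 fold change of -0.65, with 0 of 7 called in edgeR. Their summed levels overlapped. An unadjusted p under 0.05 was reached by 5 of 7, 4 lower and 1 higher. The higher one, Erbb3, averaged 11.4 CPM in WT and 18.2 CPM in KO. In KO replicate 3 the hepatocyte markers summed to 2842 CPM, against at most 18.6 CPM elsewhere, and in that library Kbtbd11 and Klhl33 were the lowest of the KO group. DESeq2 called 9 chromaffin, 5 neuron and 2 multiciliated markers higher, and 2 cortex, 5 endothelial, 2 Schwann and 1 erythroid marker lower. Over all tested loci it called 1590 higher and 1036 lower. The part of these cell types in the 3 member calls was not tested. In whole glands, a change in the number of cells of a type and a change in RNA per cell cannot be told apart.

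Cullin 3 itself was not called. Its level was 150, 119 and 130 CPM in WT and 115, 121 and 119 CPM in KO, so the groups overlapped. The means were 133 ± 15.7 and 118 ± 2.76 CPM (SD, n = 3 each). The difference was -0.16 on the log2 scale (SE 0.10), with an adjusted p of 0.403 in edgeR. The other cullins were not called either, and their log2 fold changes were all under 0.5 in size. Cul1, the scaffold of the F-box ligases, was at -0.14 and Cul2, which carries VHL, at -0.26. Cul4a, which works through the linker Ddb1, was at -0.29, and the Cul4b locus, merged with C1galt1c1, at -0.02. Cul5, which takes SOCS-box proteins, was at 0.06, Cul7 at 0.21 and Cul9 at 0.22. Cul9 was the only cullin with an unadjusted p under 0.05. It stood at 40.3, 42.2 and 43.4 CPM in WT and 50.8, 46.2 and 49.1 CPM in KO, separate groups with means of 42.0 ± 1.58 and 48.7 ± 2.33 CPM (SD, n = 3 each) and an adjusted p of 0.199 in edgeR. Cul9 lies wholly inside the deposited Srf locus on the same strand, which was at -0.39 on the log2 scale, not called. None of the 8 cullin loci was called by edgeR, DESeq2, limma-voom with quality weights or limma-trend.

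The core partners were likewise not called. Rbx1, the RING subunit, was at 38.4, 32.2 and 35.6 CPM in WT and 30.2, 30.4 and 30.2 CPM in KO. All KO libraries were below all WT libraries, but the gap to the nearest WT library was small, and the log2 fold change of -0.23 (SE 0.09) had an adjusted p of 0.227 in edgeR. The Nedd8 locus, merged with Ipo4, Tm9sf1 and Emc9, averaged 168 ± 8.89 CPM in WT against 148 ± 25.1 CPM in KO, and the Ube2m locus, merged with Chmp2a, at 87.5 ± 15.2 and 77.2 ± 1.33 CPM (SD, n = 3 each). Both had a log2 fold change of -0.18 and overlapping groups. No core partner had an unadjusted p under 0.05 in edgeR, and none was called by DESeq2 or by either limma test.

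Most Klhl loci had similar levels in both groups. Of 32 tested, 1 was called (Klhl33) and 8 had an unadjusted p under 0.05, 3 higher and 5 lower. After Klhl33 the smallest p belonged to Klhl5, with 80.5, 76.8 and 74.6 CPM in WT and 44.0, 59.2 and 49.6 CPM in KO. The groups did not overlap, but the KO libraries were spread. Its means were 77.3 ± 2.98 and 51.0 ± 7.68 CPM (SD, n = 3 each), which differ by -0.60 on the log2 scale (SE 0.12), and the adjusted p was 0.0643 in edgeR. Klhl5 contains Rfc1 on the opposite strand and Wdr19 on its own, whose log2 fold changes were -0.05 and 0.30, neither called.

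Klhl9, which with Klhl13 and Klhl21 takes Aurora B kinase to cullin 3 in mitosis, stood at 198, 194 and 189 CPM in WT and 158, 150 and 159 CPM in KO. The groups were tight and separate and the difference small: the log2 fold change was -0.32 (SE 0.08), with an adjusted p of 0.0888 in edgeR. Klhl13 was at -0.30 with overlapping groups, and Klhl21 at -0.10. Klhl9 and Klhl13 are close relatives, yet only 1.42% of the 50-base words in Klhl13 transcripts occurred in transcripts of any other gene, and Klhl9 shared none with Klhl13.

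Klhl32 was higher in every KO library, at 17.2, 15.02 and 16.6 CPM against 9.52, 11.7 and 6.28 CPM in WT. The log2 fold change was 0.83 (SE 0.23) and the adjusted p 0.114 in edgeR. Klhl4, on the X chromosome, was at 3.80, 4.79 and 4.54 CPM in WT and 3.17, 3.02 and 2.50 CPM in KO (log2 fold change -0.60, adjusted p 0.134 in edgeR). Klhl29 had a log2 fold change of -0.35, Klhl8 one of -0.42, and Klhl10, a gene known from sperm development, one of 0.73 at under 1 CPM in all libraries. In each of these 5 loci the groups did not overlap, and in none was the edgeR test passed. They were named for their small p-values. Of the 32 tested Klhl loci, 10 had groups that did not overlap (31.2%, against 30.5% of all tested loci). Klhl12, which acts on the coat protein Sec31 in collagen export, was nearly level at 25.6 and 24.1 CPM.

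The tools differed mainly in this family. DESeq2 called 8 members: the 3 called by edgeR, Klhl32 and Kctd8 higher, and Klhl4, Klhl5 and Klhl9 lower. With limma-voom and quality weights 5 were called, the same 3 with Klhl32 higher and Klhl5 lower. These counts go with larger counts over all loci, 2626 for DESeq2 and 1503 for limma-voom, against 393 for edgeR. DESeq2 called 8 of 74 members against 2626 of 21358 loci, and limma-voom 5 of 74 against 1503 of 21358. With neither tool was the share of members called above the share over all tested loci.

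Of the 8 tested Kbtbd loci, Kbtbd11 was the 1 called and had the family's only unadjusted p under 0.05. Kbtbd12 was at 0.441 CPM in WT against 0.274 CPM in KO, a log2 fold change of -0.69 (SE 0.31) on few reads. Kbtbd7, which with Kbtbd6 controls the Rac activator TIAM1, was at 20.97 ± 0.794 CPM in the WT group, against 23.6 ± 1.43 CPM in the KO group (SD, n = 3 each), and Kbtbd2, which controls the p85 subunit of PI3 kinase, at 59.0 and 53.6 CPM. Kbtbd6 and Kbtbd7 are the closest pair here: 24.7% of the 50-base words in Kbtbd6 transcripts also occur in Kbtbd7, so part of their reads may be assigned to the wrong one. Over the 81 member symbols, 4 had more than 5% of such words in another gene's transcripts: Kbtbd6, Kbtbd7, Kctd13 and Kctd3. For Kctd13 the other gene was Gm21984, at 6.17%.

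Among the 19 tested Kctd loci, 1 was called, the merged Sez6l2/Kctd13. An unadjusted p under 0.05 was reached by 2, this locus among them (10.5%, against 22.2% of all tested loci). The other was Kctd8, which with Kctd12 and Kctd16 forms auxiliary subunits of GABA-B receptors. Kctd8 was at 0.780, 1.03 and 0.710 CPM in WT and 2.02, 1.82 and 1.23 CPM in KO. Every KO library was above every WT library, with a log2 fold change of 1.00 (SE 0.28) and an adjusted p of 0.116 in edgeR. Kctd12 overlapped widely between groups, and Kctd16 had at most 3 reads in any library. The receptor gene Gabbr1 was at 28.1 ± 4.62 CPM in WT against 32.7 ± 3.28 CPM in KO (SD, n = 3 each), not called.

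Kctd19 had a larger fitted value, 1.66, but with a standard error of 1.12 and levels from 0 to 0.433 CPM. Kctd2 was at -0.28 with KO below WT in every library, and Kctd10, which takes RhoB to cullin 3, at -0.30 with overlap. Kctd20 and Kctd6 were at -0.26 and -0.16. Kctd5, a regulator of G-protein beta-gamma subunits, is merged with Pdpk1 in a locus at 125 and 131 CPM. Kctd1 and Kctd15, repressors of AP-2 transcription factors, were at -0.04 and -0.07 on the log2 scale. None of these was called in edgeR.

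Spop, an adaptor with a MATH domain, was at 117, 105 and 112 CPM in WT and 101, 80.0 and 76.7 CPM in KO. The groups were separate with a small gap, and the means of 111 ± 5.89 and 85.8 ± 12.9 CPM (SD, n = 3 each) gave a log2 fold change of -0.37 (SE 0.12) and an adjusted p of 0.156 in edgeR. The Rhobtb genes had log2 fold changes of -0.23 (Rhobtb1), 0.08 (Rhobtb2) and -0.15 (Rhobtb3), with overlapping groups. Of these 4 loci none was called by edgeR, DESeq2 or either limma test, and Spop alone had an unadjusted p under 0.05 in edgeR.

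Levels between genes can be compared per length, here as CPM per kb of the deposited gene length averaged over the 6 libraries. Klhl9 was the highest member at 41.8 CPM per kb, followed by Spop at 30.9, Klhl14 at 27.7, Cul4a at 23.6, the Ube2m locus at 20.9, Klhl11 at 20.4 and Cul1 at 19.7. Cul3 came next at 15.9 CPM per kb. The spread over libraries overlapped between several neighbours in this order: Klhl14 ranged in WT from 81.9 to 169 CPM. Kbtbd11, at 0.391, and Klhl33, at 0.529 CPM per kb, were among the lowest tested members.

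**Figure D3:**
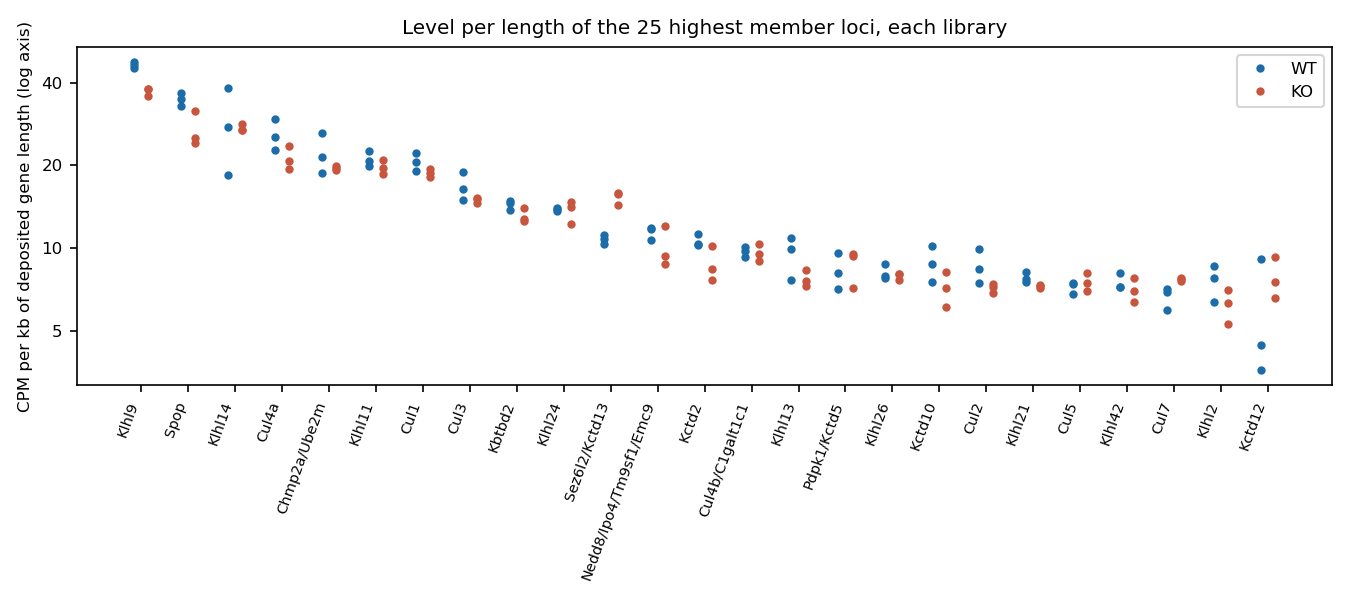
CPM per kb of deposited gene length (y axis, log scale) of the highest member loci in each library, ordered by their mean; blue points are WT and red points KO. Klhl9 is highest in both groups, with all KO points below all WT points, and the KO points of Sez6l2/Kctd13 lie above its WT points.

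The direction of small differences depends on how libraries are scaled. With TMM the median log2 fold change of the 74 tested members was -0.08, with 27 positive and 47 negative, and that of all tested loci was -0.01. Scaling to total counts moved the median of all loci to 0.22, scaling to equal Rn7sk counts moved it to 0.19, and the authors' log2 CPM values gave 0.22. The member median then became 0.15, 0.12 and 0.13, or 0.07 to 0.09 below the median of all loci. Rescaling libraries shifts all loci nearly alike, so it could hardly change this difference. A stricter filter did change it. With at least 10 CPM in 3 libraries, the median of the 53 members tested was -0.0103, against -0.0227 for the 9732 loci tested. Both medians are then taken over fewer loci than in the main test. In the cullins the median turned from -0.08 to 0.16 under total counts. The same shift of all loci left it at -0.07 relative to them in both. With at least 10 CPM in 3 libraries the median of the same 8 cullin loci was 0.0238 above that of the 9732 loci tested. The 3 called loci were higher in KO and called under total counts, equal Rn7sk counts and the authors' log2 CPM values.

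Some members varied more within a group than between groups. They were picked after their values were seen. Kbtbd4, known with the CoREST complex, was at 30.5 and 26.6 CPM in 2 WT libraries but at 9.78 CPM in the third, beside 16.5, 9.09 and 10.3 CPM in KO. Its log2 fold change of -0.90 had a standard error of 0.45. Ptpmt1, which overlaps it on the opposite strand, stayed between 6.98 and 9.74 CPM in all 6 libraries.

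Kctd18 had the reverse shape, with 4.91, 5.74 and 13.4 CPM in WT and 10.2 to 11.3 CPM in KO. Kctd12 was at 28.2, 71.2 and 34.7 CPM in WT and 51.5, 72.5 and 58.8 CPM in KO. Klhl14 spread from 81.9 to 169 CPM in WT and only from 119 to 125 CPM in KO. The antisense gene 4930426D05Rik, which overlaps its 5′ end, followed the same order in WT (69.7, 31.2 and 40.5 CPM against 169, 81.9 and 122 CPM in Klhl14), and without a stated strand setting their reads cannot be told apart.

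Klhl3, the adaptor for WNK kinases, was at 6.05 and 7.79 CPM in KO replicates 1 and 2 and at 1.48 CPM in KO replicate 3, the library with the hepatocyte markers, while WT lay between 3.94 and 4.99 CPM; the part of those cells was not tested. Its standard error was 0.55 on the log2 scale. Kctd21, of the Kctd group that acts on HDAC1 in Hedgehog signalling, was at 5.74, 10.9 and 10.1 CPM in WT and 9.07, 4.08 and 10.3 CPM in KO.

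**Figure D4:**
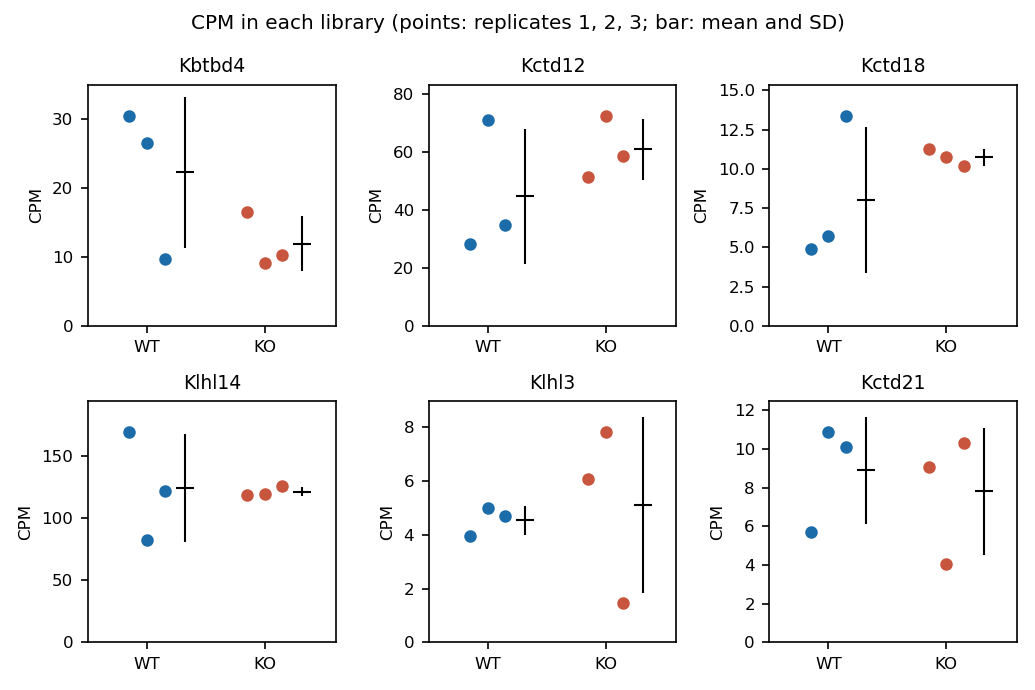
CPM (y axis) in each library of 6 members that vary within a group; points are replicates and the bars are the mean and SD of 3. In Kbtbd4, Kctd18 and Klhl3 a single library stands apart from the other 2 of its group.

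The 7 members that did not pass the count filter were Kbtbd13, Kctd16, Kctd4, Klhl1, Klhl31, Klhl34 and Klhl40, and none had more than 16 reads in any library. Klhl31 and Klhl40 are known from muscle. Kctd4 had 16 reads over the WT libraries and 0 over KO, while Klhl1 had 3 and Klhl40 had 6 reads in KO and 0 in WT. No fold change is given for these loci.

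Other genes of the pathway were read from 5 lists. Of the 13 tested enzymes and regulators of Nedd8 conjugation, none was called by edgeR or DESeq2, and 2 had an unadjusted p under 0.05 in edgeR. That is 15.4% of this list, against 22.2% of all tested loci. The median log2 fold change was -0.16. The smallest p-values were those of Dcun1d5, a Nedd8 ligase co-factor (-0.28), Cand2, a cullin exchange factor (0.30), and Rnf7, the RING partner of Cul5 (-0.40). Under total counts, and with limma-trend, 1 gene of this list was called higher.

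All 10 COP9 signalosome genes were tested and none was called by edgeR or DESeq2, with 2 at an unadjusted p under 0.05 in edgeR. Their median was -0.23 and 9 of 10 had a negative log2 fold change under TMM. Relative to the median of all loci their median was -0.22 under TMM and total counts, which differ by a shift of all loci. That relative median was -0.101 without WT replicate 1, -0.308 without WT replicate 2 and -0.128 with at least 10 CPM in 3 libraries. Cops2 was at 152, 121 and 165 CPM in WT and 112, 108 and 110 CPM in KO, with KO below WT throughout (log2 fold change -0.41, SE 0.13, adjusted p 0.142 in edgeR). Gps1 was at -0.34 and Cops9 at -0.22. None of the 14 tested linkers and scaffolds of the other cullins was called by edgeR or DESeq2. In edgeR 2 had an unadjusted p under 0.05 (14.3%, against 22.2% of all tested loci). The smallest p-values there were those of Ddb1 (-0.28), Elob (-0.21) and Skp1a (-0.60).

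Of the 24 tested BTB genes outside the name rule, Armc5 was the 1 called. The next were Gmcl1 (-0.34), Btbd1 (-0.26) and Keap1, the adaptor that holds down the antioxidant factor NRF2. Keap1 stood at 32.4, 26.5 and 23.8 CPM in WT and 44.8, 34.4 and 34.9 CPM in KO, with a log2 fold change of 0.46 (SE 0.16) and an adjusted p of 0.172 in edgeR. Nfe2l2, which encodes NRF2, was at 187, 158 and 208 CPM in WT and 119, 120 and 132 CPM in KO. It did not pass in edgeR, with a log2 fold change of -0.58 (SE 0.12) and an adjusted p of 0.0672.

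The last list holds 19 tested genes taken as substrates or partners of cullin 3 adaptors, with a median of -0.07. In edgeR 2 were called higher, the direction of 1.41% of all tested loci, and none lower. The list was drawn up with earlier results of these data known, so this is not an independent comparison. DESeq2 and limma-voom with quality weights each called 3, of which 2 were higher and 1 lower. Tfap2b, an AP-2 factor of the sympathoadrenal lineage, was at 10.6, 14.5 and 12.1 CPM in WT and 28.0, 27.8 and 27.5 CPM in KO. It rose by 1.16 on the log2 scale (SE 0.13, adjusted p 0.0204 in edgeR). Drd2 is a dopamine receptor for which no cullin 3 adaptor is named here. Its level was 4.25, 3.46 and 2.23 CPM in WT and 9.51, 9.72 and 8.60 CPM in KO. Drd2 rose by 1.48 on the log2 scale (SE 0.25, adjusted p 0.0484 in edgeR). Both moved in the direction of the chromaffin and neuron markers given above, and the part of those cells was not tested. Polr2a, which encodes the largest subunit of RNA polymerase II, a known target of Armc5, was at 226, 302 and 343 CPM in WT and 248, 210 and 223 CPM in KO, with overlapping groups and a log2 fold change of -0.36 (SE 0.17, adjusted p 0.268 in edgeR).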

How the data were processed

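RNA was sequenced from 3 WT and 3 KO adrenal gland samples. The authors deposited whole-number read counts per locus and log2 CPM values, per the file headers. The submitters' processing notes name the genome build GRCm38 and the tools STAR, StringTie, Trimmomatic, edgeR and Picard. Tool versions, the counting program and its strand setting were not given in the sources used here. Group-level columns were left aside. Loci without a gene name (1.39% to 2.04% of counts) were left out.

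The counts were tested with edgeR 4.0.16 in R 4.3.3 (filterByExpr by group, minimum count 10; TMM; robust quasi-likelihood; 2-sided; Benjamini-Hochberg adjustment over 21358 loci; threshold 0.05), with 3 samples a group and no covariate. Standard errors were derived from the fold change and the F statistic. Alternatives were other scalings, filters and designs, DESeq2 1.42.0, limma 3.58.1 with quality weights, and limma-trend on the authors' deposited log2 CPM values. Gene lengths are those the authors deposited. The alternative without WT replicate 1 and KO replicate 3 together was chosen after seeing the data. Transcript words of 50 bases came from GENCODE M21. Of the 81 member loci, 68 had the same start and end as their gene there. Cul3, Cul9, Spop and Klhl5 were among those that did not.

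The members and lists were chosen with earlier results of these data known. Named were every cullin, the core partners and Spop; in each other family every called member, those with the smallest p (8, or 3 for Kbtbd and Rhobtb), the 3 with the highest level per length, and those changed by at least 1 on the log2 scale without overlap; and in each pathway list the called members and the 3 smallest p. Other members are named for their role or their spread within a group, after their values were seen.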

Additional observations from a re-analysis of the deposited data

How the results depend on the processing

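The direction of Kbtbd11, Klhl33 and Sez6l2/Kctd13 was the same in every alternative that tested them. With 3 samples a group, calls depend on the design: all loci gave 393 calls in edgeR, and 672 with total counts, 711 with equal Rn7sk counts, 2626 with DESeq2, 1503 with limma-voom, 975 with limma-trend, 16 without WT replicate 1 and KO replicate 3 together, and 16 to 684 when 1 library was left out. Calls among members numbered 3, and 1 with at least 10 CPM in 3 libraries, 8 with DESeq2, 5 with limma-voom, 0 without WT replicate 1 and KO replicate 3 together, and 0 to 1 when 1 library was left out. The pathway lists held 3 calls (Armc5, Tfap2b and Drd2), 1 without those 2 libraries, and 1 to 4 when 1 library was left out. The call left without those 2 libraries was lower in KO, in the BTB list that holds Armc5. The member median of -0.0769 became 0.150 with total counts, 0.122 with Rn7sk, 0.134 with limma-trend, -0.0103 with at least 10 CPM, -0.0974 with limma-voom, and -0.0851 to -0.053 when 1 library was left out. The cause was not tested.

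The labels number the samples 1 to 3 in both groups, but same-numbered samples did not deviate together (correlations -0.0857, 0.0118 and -0.142). With 3 samples a group this cannot exclude a pairing, and the main test used none. With the replicate block 5 loci were called, 0 of them members. The pathway lists held 1 call, lower in KO, in the BTB list whose only call in the main test was Armc5 itself.

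Among the 42 named members followed through the alternatives, signs of fitted values near 0 turned in 18 instances, given after subtracting the shift of all loci where a scaling moved it. Leaving out 1 library moved Kctd21 from -0.435 to 0.122 (0.00517 without WT replicate 2), Pdpk1/Kctd5 from -0.0277 to 0.189 (-0.0047 without KO replicate 1), Klhl3 from -0.272 to 0.608, Klhl14 from -0.244 to 0.249, Rhobtb2 from -0.0895 to 0.272 and Cul4b/C1galt1c1 from -0.0742 to 0.0316 (0.0129 without WT replicate 1). Klhl3 was -0.0942 with the block, -0.222 with limma-voom and -0.135 with limma-trend. Klhl14 was 0.0471 with at least 10 CPM, 0.0246 with the block, 0.224 without WT replicate 1 and KO replicate 3, 0.0197 with limma-voom and 0.0225 with limma-trend, and Cul4b/C1galt1c1 was 0.061 with at least 10 CPM. Without that subtraction, 12, 10 and 11 of these 42 members changed sign under total counts, Rn7sk and limma-trend.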
